A study of Homo sapiens with 9 samples.

Results

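The resting expression profile of H69 cells was read from 3 vehicle control arrays, out of 9 arrays in the series. H69 is an established human small cell lung cancer line, so these values describe a single line and not the tumour type. The arrays carry the replicate numbers 1, 3 and 5 in their titles. The cells were kept in RPMI medium with serum, and the protocol gives DMSO for 24 h as the control treatment, while the treatment field of the same samples reads none. They are called control cells here. For each array 2 ug of total RNA had been labelled, and an Affymetrix array read it as 1 log2 signal per probe set, a group of short probes against a transcript. Levels are given for 19775 genes, each read from whichever of its single-symbol probe sets was brightest, and ranked by the mean over the 3 arrays, with rank 1 the brightest. Levels and ranks come from the control arrays alone, although the deposited values may have been normalized together with the arrays of inhibitor-treated cells. The labels do not say whether the arrays hold separate cultures, so an SD over 3 arrays may be technical spread, and 3 arrays limit its precision.

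Small cell lung cancer is a fast-dividing tumour of the airway with neuroendocrine features: its cells make dense-core secretory granules, peptide hormones and neuronal adhesion proteins. A few transcription factors set this state, among them INSM1, a zinc finger repressor of neuroendocrine precursors. Subtypes differ in which lineage factor and which MYC family member they use, and H69 is known for amplified MYCN. The other end of the spectrum is a non-neuroendocrine state with YAP1, a co-activator of the Hippo pathway, and mesenchymal genes.

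A gene counts here as above background where its signal passed, on every one of the 3 arrays, the level that 95% of a list of reference silent genes stayed under. That list holds genes of tissues such as muscle, testis and salivary gland, with 202 measured members and a median log2 level of 6.72. The cutoff was 8.77 on control 1, 8.77 on control 3 and 8.92 on control 5. By this rule 7135 genes were above background (36.1% of all genes), 785 passed the cutoff on some arrays but not all (3.97%), and 11855 stayed under it on all 3 (59.9%). The median over all genes was 8.21, and the range ran from 4.43 to 14.84. A level of at least 12 was reached by 631 genes, or 3.19%. Of the silent list itself 10 genes were above background, led by HTN1, a salivary histatin, at 10.46 and KRT10, an epidermal keratin, at 10.32. Of 63 olfactory receptor genes outside that list 3 were above.

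Being under the cutoff is not the same as being silent. RPLP2, a ribosomal stalk protein of all cells, had 8.03, and EIF4A2, a translation helicase, had 5.75. PLK1, a mitotic kinase, had 8.18 in a culture in which 34 other proliferation genes were above background. The choice of the brightest probe set also matters: 23.1% of the 9252 genes with 1 probe set were above background, against 59.5% of the 2728 genes with at least 4. Ranks are ranks of probe set signal, which depends on probe binding as well as on RNA, so no fold is given between genes.

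**Figure D1:**
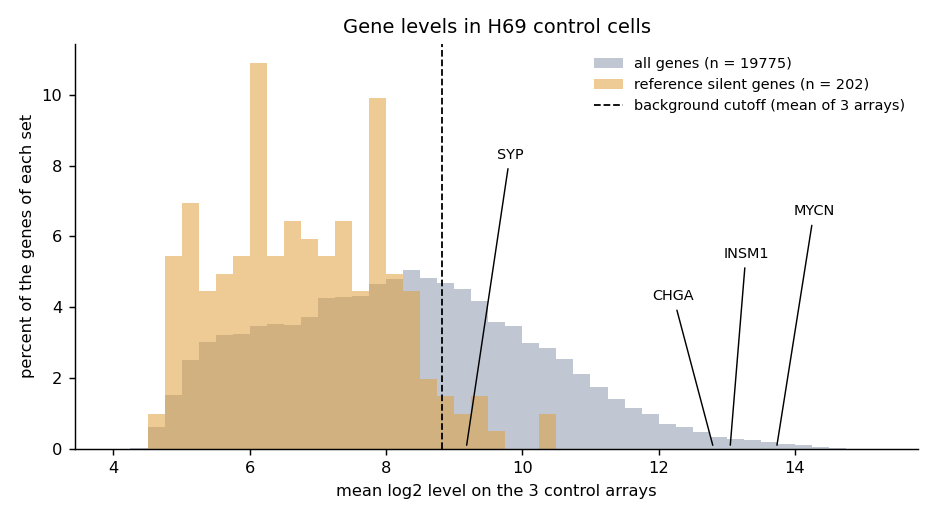
Distribution of the mean log2 level over the 3 control arrays (x axis) as percent of the genes in each set (y axis), for all 19775 genes in grey and the 202 reference silent genes in orange. The dashed line is the background cutoff, averaged over the arrays. MYCN, INSM1 and CHGA lie in the far right tail, and SYP lies just right of the cutoff.

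The 3 arrays gave nearly the same ranking. Pearson's r across genes, which are not independent replicates, was between 0.9977 and 0.9983 for the array pairs. The median absolute difference between 2 arrays was 0.06 to 0.08 on the log2 scale. Control 5 had the highest cutoff and the largest difference between the 3' and 5' probe sets of actin, which can be a sign of shorter RNA or labelled product. It was 0.44, against 0.24 on control 1 and 0.29 on control 3. For GAPDH the same difference was -0.05, -0.01 and 0.01 on controls 1, 3 and 5.

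All 4 defining markers of the line were above background, but not at like ranks. MYCN, the MYC family transcription factor (probe set 209757_s_at), had 13.68, 13.75 and 13.76 on controls 1, 3 and 5. Its mean was 13.73 ± 0.04 (SD, n = 3), which is rank 73 of 19775, with ranks between 69 and 79 on single arrays. The values of 23 other genes overlapped its range, so its place among those neighbours is not resolved. INSM1 had 13.05, 13.01 and 13.08 (mean 13.05 ± 0.04, SD, n = 3) and rank 197. CHGA, which encodes the granule protein chromogranin A, had 12.81, 12.80 and 12.81 (mean 12.81 ± 0.01) and rank 253. SYP, which encodes the vesicle membrane protein synaptophysin, had 9.17, 9.19 and 9.17 (mean 9.18 ± 0.01) and rank 6228. By this choice of probe sets SYP was the dimmest of these markers, 0.25 over the highest cutoff, and it rests on 1 probe set.

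For MYCN the rank depends on the probe set. The gene has 9 other probe sets with a single symbol, whose means ran from 5.49 to 9.20, and 2 of these were above background. Without probe sets that may bind several transcripts (identifiers ending in _x_at or _s_at) MYCN had rank 3917, and with the mean of all its probe sets rank 9480. The other INSM1 probe set had 7.81, at background, and INSM1 had rank 8370 under the first of these rules and 1258 under the second. SYP then had ranks 3985 and 3559, so that it was brighter than INSM1 under the first rule and than MYCN under the second.

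Promoter windows of 5 genes are printed here to show how far CpG content and the level of a gene can go apart (MYCN, YAP1) or together (ALB). Each window holds 250 bases before and 50 after the transcript start in RefSeq (GRCh38.p14), 5′ to 3′ on the gene's strand, with every CpG dinucleotide in capitals. MYCN lies at chr2:15940300-15940599 on the plus strand and CHGA at chr14:92922900-92923199 on the plus strand. SYP lies at chrX:49200144-49200443 on the minus strand. YAP1, at background, lies at chr11:102110197-102110496 on the plus strand, and ALB, the liver gene of serum albumin, at chr4:73404037-73404336 on the plus strand.
MYCN: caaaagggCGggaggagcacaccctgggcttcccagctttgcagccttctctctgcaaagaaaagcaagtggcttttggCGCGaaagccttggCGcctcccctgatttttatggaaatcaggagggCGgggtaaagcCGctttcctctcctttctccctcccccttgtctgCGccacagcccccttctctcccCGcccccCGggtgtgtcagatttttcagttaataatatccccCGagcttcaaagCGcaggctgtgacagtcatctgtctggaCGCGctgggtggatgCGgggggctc
CHGA: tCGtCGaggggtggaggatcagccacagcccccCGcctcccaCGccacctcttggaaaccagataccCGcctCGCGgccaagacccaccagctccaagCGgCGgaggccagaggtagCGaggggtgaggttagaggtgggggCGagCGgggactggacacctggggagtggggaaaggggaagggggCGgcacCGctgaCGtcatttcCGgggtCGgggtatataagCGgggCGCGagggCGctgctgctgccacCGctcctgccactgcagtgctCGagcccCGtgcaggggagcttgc
SYP: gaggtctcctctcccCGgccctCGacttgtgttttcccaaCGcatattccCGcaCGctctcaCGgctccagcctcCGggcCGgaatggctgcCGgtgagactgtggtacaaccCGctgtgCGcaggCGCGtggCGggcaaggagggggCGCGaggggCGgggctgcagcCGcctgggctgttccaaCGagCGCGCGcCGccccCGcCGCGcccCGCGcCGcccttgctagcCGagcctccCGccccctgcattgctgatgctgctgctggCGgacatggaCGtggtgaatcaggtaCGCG
YAP1: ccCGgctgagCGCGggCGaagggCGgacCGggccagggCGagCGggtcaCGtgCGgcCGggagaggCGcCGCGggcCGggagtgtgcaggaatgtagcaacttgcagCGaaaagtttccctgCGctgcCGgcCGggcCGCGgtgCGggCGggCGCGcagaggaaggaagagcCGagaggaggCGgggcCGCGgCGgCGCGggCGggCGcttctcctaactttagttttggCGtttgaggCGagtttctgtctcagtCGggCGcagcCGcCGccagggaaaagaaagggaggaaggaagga
ALB: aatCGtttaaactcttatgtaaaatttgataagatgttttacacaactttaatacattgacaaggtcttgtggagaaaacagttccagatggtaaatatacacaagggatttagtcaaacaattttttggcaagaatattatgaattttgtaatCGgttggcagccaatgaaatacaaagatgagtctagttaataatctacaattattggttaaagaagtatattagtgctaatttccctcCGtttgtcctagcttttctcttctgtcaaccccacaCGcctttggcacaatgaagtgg
The ratio of observed CpG to the number expected from the C and G content was 0.546 in the MYCN window, with 14 CpG, and 0.678 in the CHGA window, with 24. Both lie under the median of all matched genes, 0.768. The ratio was 0.918 for SYP, with 35 CpG, although SYP was the dimmest of these 3 genes. YAP1 had the highest ratio of the 5 windows, 1.15 with 40 CpG, at a mean log2 level of 6.70, under the cutoff on all 3 arrays. ALB had 4 CpG, a ratio of 0.481 and a level of 5.67.

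Over all genes, CpG-rich windows went with higher levels. Windows were found for 15384 genes, and the median ratio was 0.864 in the 6006 genes above background and 0.616 in the 8758 at background. A ratio of at least 0.6, called CpG-rich here, was met by 87.6% of the genes above background, 51.2% of those at background and 66.5% of all. Over 10 equal groups of matched genes, from the dimmest to the brightest, the share went from 35.7% to 90.4%. The neuroendocrine markers did not follow it: 40.0% of their 20 matched windows were CpG-rich, with a median ratio of 0.514, although nearly all of these genes were above background. Among markers of other cell types the share was 19.2% of 104.

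Short motifs were counted in the same windows. CAGCTG, a form of the E-box CANNTG that basic helix-loop-helix factors bind, was in 15.5% of windows above background, 19.3% at background and 17.8% of all 15384. CANNTG, which includes every CAGCTG and reads alike on both strands, was in 59.6%, 68.0% and 64.4%. TATAAA on either strand was in 5.00%, 11.6% and 8.76%. These are counts of letters in a window, over genes that are not independent of each other, and no binding was measured.

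**Figure D2:**
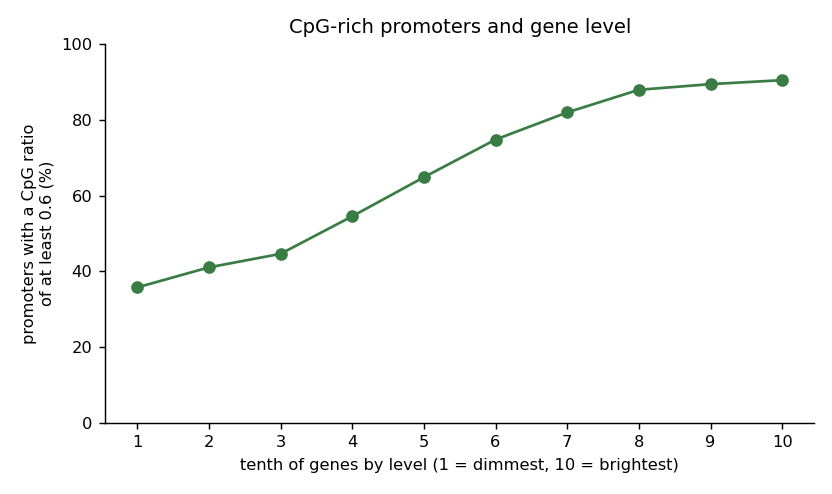
Percent of RefSeq promoter windows with a CpG ratio of at least 0.6 (y axis) in 10 equal groups of matched genes ordered by mean log2 level on the control arrays (x axis, 1 dimmest). The share goes from 35.7% in the dimmest group to 90.4% in the brightest.

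Of the families counted, cytoplasmic ribosomal proteins held the largest part of the bright end. Of the 100 brightest genes, which spanned 13.55 to 14.84, 40 encode cytoplasmic ribosomal proteins, 7 translation factors and their companions, 6 glycolytic enzymes, 5 mitochondrially encoded proteins and 4 tubulins. RPL41, a ribosomal protein, was first with 14.84 on all 3 arrays. EEF1A1, which brings tRNA to the ribosome, followed with 14.72, 14.72 and 14.74. TUBA1B, TUBA1A and TUBA1C, the alpha tubulins of microtubules, had means of 14.70, 14.62 and 14.45, but the 3 genes are near-identical and their probe sets may read each other. GAPDH of glycolysis had 14.61, COX2, the mitochondrially encoded subunit of cytochrome oxidase, 14.59, and PPIA, a prolyl isomerase, 14.38.

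Among the 30 brightest, 18 were ribosomal proteins, and the rest included UBB (ubiquitin, 14.33), the chaperone HSP90AA1 (14.30), LDHA (lactate dehydrogenase, 14.24), TPT1 (14.24) and NPM1 (nucleolar chaperone, 14.16). From the surface target, MYC family and lineage factor lists, CD24, a surface sialoglycoprotein with 13.78, MYCN, and SOX4, a progenitor transcription factor with 13.57, were in the top 100. The neuroendocrine marker list had 0 members there, with TUBB3 the nearest at rank 114. Among whole lists, 47 of 48 ribosomal proteins, 35 of 35 respiratory chain and ATP synthase subunits and 27 of 27 proteasome and chaperone genes were above background, against 36.1% of all genes. The median of the ribosomal list was 13.89 and that of the respiratory list 12.28, against 8.21 for all genes. The membership of the top 100 depends on the probe sets taken: 49 of the 100 stayed with the mean of all probe sets of a gene, and 22 without identifiers ending in _x_at or _s_at.

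Of 31 neuroendocrine markers 29 were above background, or 93.5% against 36.1% of all genes. Of these, 12 were at 12 or more, and the list median was 11.43. TUBB3, the neuronal beta tubulin, led with 13.48, 13.45 and 13.37. BEX1, a small neuronal adaptor, had 13.33, 13.35 and 13.32. UCHL1, a ubiquitin hydrolase of neurons, had 13.24, 13.22 and 13.19. The values of these 3 genes did not overlap on the arrays, and their order was the same on each. DDC, which makes dopamine and serotonin from their precursors, had a mean of 12.58. SYT4, a membrane protein of secretory granules, had 12.40, and NCAM1, the neural cell adhesion molecule CD56, 12.33. At the other end CELF3, a neuronal splicing factor, passed the cutoff narrowly with 8.90, 8.81 and 9.08. The 2 markers at background were CPLX2, a complexin of vesicle release, with 8.66, and DNER, a Notch ligand of neurons, with 5.50. In this list 19 of 30 neighbouring pairs in the order had values that did not overlap.

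**Figure D3:**
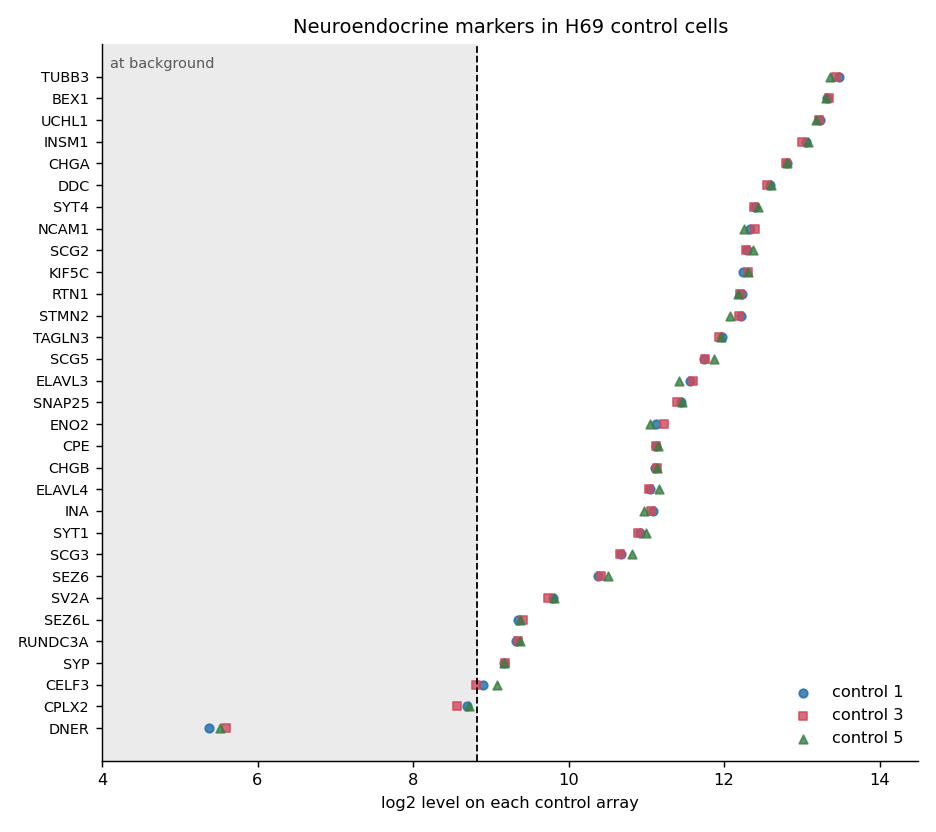
Log2 level (x axis) of 31 neuroendocrine markers (y axis, ordered by mean) on each control array, 1 symbol per array. The grey area lies under the background cutoff averaged over the arrays. The 3 symbols of most genes coincide, and CPLX2 and DNER lie in the grey area.

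Most genes of the secretory granule were above background, and few genes of peptide hormones were. Of 13 granin and prohormone processing genes 12 were above background, or 92.3%. After CHGA came PAM, which amidates peptide ends, with 12.71, the granin SCG2 with 12.32, the calcium-binding secretagogin SCGN with 12.13, and the chaperone of prohormone convertase SCG5 with 11.79. CPE, which trims basic residues, and CHGB, chromogranin B, both had 11.13. PTPRN, a phosphatase-like granule membrane protein, was at background with 7.23. Of 28 neuropeptide hormone genes 4 were above background, or 14.3%, fewer than the 36.1% of all genes, and the list median was 7.34.

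GRP, the bombesin-like peptide long known from small cell lung cancer, had 11.64, 11.61 and 11.70. NTS, neurotensin, had 10.61, 10.61 and 10.78. ADM (adrenomedullin) had 9.93 and PENK (proenkephalin) 9.79. Among the 24 at background were AVP (vasopressin, 8.38), ADCYAP1 (8.19), CCK (cholecystokinin, 8.18) and, lowest, TAC1 (5.00), VIP (5.06), CALCB (5.33) and SST (somatostatin, 5.49). Of 21 receptors for such peptides 1 was above background, or 4.76%, 2 passed the cutoff on some arrays, and 18 were at background. The receptor above was AVPR1A, for vasopressin, with 9.37. None of its 4 other probe sets was above background, with means from 4.74 to 7.44. The receptors of the brightest peptides had 6.50 (GRPR, for GRP) and 7.75 (NTSR1, for NTS).

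Of 19 genes of transmitter synthesis and transport 5 were above background, or 26.3%, against 36.1% of all genes. GCH1, which makes the cofactor of the aromatic amino acid hydroxylases, had 12.73, 12.66 and 12.80, and DDC had 12.59, 12.55 and 12.60. TPH1, the first enzyme of serotonin synthesis, had 9.80, 9.90 and 10.23, with the highest value on control 5. The dopamine transporter SLC6A3 had 9.84, and GAD2, which makes GABA, 9.51. TH, the first enzyme of catecholamine synthesis, was at background with 7.45, as were the monoamine transporters of vesicles SLC18A1 with 7.39 and SLC18A2 with 6.10.

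Of 40 lineage transcription factors 20 were above background, against 36.1% of all genes. SOX4 had 13.56, 13.60 and 13.56, TCF4, an E-protein partner of basic helix-loop-helix factors, 13.22, 13.22 and 13.18, and SOX2, a factor of airway progenitors, 13.10, 13.13 and 13.04. The inhibitors of such factors were bright as well, with means of 12.56 for ID1, 12.51 for ID2 and 12.10 for ID4. NFIB, a chromatin-opening factor, had 11.99. FOXA2, a pioneer factor of endoderm, had 11.88, and ISL1, a factor of neuroendocrine and motor neuron lineages, 11.79. At the low end were POU2F3, which defines the tuft cell-like subtype, with 4.83, 4.93 and 4.87, and YAP1 with 6.62, 6.75 and 6.74. ONECUT1 had 5.65 and INSM2 5.70. NKX2-1, a factor of the lung epithelium, had 8.22, 8.22 and 8.23, at background on all arrays. REST, the repressor of neuronal genes, had 9.05, 8.82 and 8.91, and it passed the cutoff on some arrays but not on all.

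In the MYC network, MYCN was the bright family member. MYC had 7.07, 6.76 and 6.89, and MYCL 7.29, 7.34 and 7.22, both at background. MAX, the shared dimerization partner, had 10.72, 10.70 and 10.66. MLX had 10.68, MLXIP 10.28, and the antagonists MXD3, MXI1 and MNT 9.80, 9.56 and 9.52, while MXD1, at 7.95, was at background. MGA, another antagonist, was at background with 8.53. In all, 7 of 11 genes of the network were above background, or 63.6% against 36.1% of all genes.

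Of the 15 measured genes on each side in the RefSeq order of chromosome 2, 10 of 30 were above background, 6 before and 4 after MYCN. The share over all genes was 36.1%. The median level of the 30 neighbours was 7.84, against 8.21 for all genes, and noncoding RNA genes are among them. A hand-written list of 2p24 genes gave another picture, with 14 of 25 above background, or 56.0%, and a median of 9.25. It includes MYCN itself, ODC1, which makes polyamines, with 13.11, and RRM2 with 12.62, so the picture of the region depends on which genes are taken. DDX1, an RNA helicase often amplified together with MYCN, had 11.45, 11.38 and 11.55. MYCNOS, the antisense transcript of MYCN, had 10.87, 10.95 and 10.87, but it overlaps MYCN, and whether its probes tell the strands apart was not tested. NBAS, the next gene out, had 9.25, and MYCNUT, a noncoding neighbour, was at background with 7.91. On the other side the nearest measured genes CYRIA (6.96) and VSNL1 (6.36) were at background, and LAPTM4A, a lysosomal membrane protein farther out, had 11.99. Array levels do not measure gene copies.

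Notch signalling restrains the neuroendocrine fate in airway cells. A ligand on a neighbour binds a receptor, which is then cleaved. The inner part of the receptor joins RBPJ and switches on HES and HEY repressors. Several ligands were above background in these cells, and the 4 receptors were not. The ligand DLL1 had 11.27, 11.37 and 11.20, the inhibitory ligands DLK1 and DLL3 had 10.79 and 9.87, and the ligand JAG2 had 10.61. The ligand DLL4 was at background with 8.62. RBPJ had 11.35, and the target HEY1 10.94. HES6, which opposes HES1, had 10.90, while HES1 itself lay near the cutoff with 8.98, 9.11 and 9.08. All 4 receptors were at background, with 8.64 for NOTCH1, 8.60 for NOTCH3, 8.09 for NOTCH2 and 7.31 for NOTCH4. Over the pathway, 14 of 26 genes were above background, or 53.8% against 36.1% of all genes. NUMB, an endocytic inhibitor of Notch had 5.34, the lowest level of the list.

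Surface proteins under study as targets in small cell lung cancer were above background for 14 of 22, or 63.6% against 36.1% of all genes. CD24 had 13.81, 13.74 and 13.79, and EPCAM, the epithelial adhesion molecule, 13.29, 13.22 and 13.36. CADM1 had 12.56, ALCAM 12.31, CD47, the signal against phagocytosis, 12.09, and PROM1 11.90. Low members were the somatostatin receptor SSTR2 (7.98), PSCA (7.28), NECTIN4 (7.27) and MSLN (mesothelin, 7.05), all at background. Of the epithelial adhesion genes 19 of 25 were above background, or 76.0%. Among them were the desmosomal DSP with 13.15, SPINT2 with 12.17 and the simple keratins KRT18 (11.91), KRT19 (11.76) and KRT8 (11.58). E-cadherin, CDH1, had 9.22, 9.39 and 9.15. GRHL2, an epithelial transcription factor, was lowest with 5.42.

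Mesenchymal and non-neuroendocrine markers were above background for 8 of 42, or 19.0% against 36.1% of all genes. The bright members were the calcium-binding S100A6 with 12.16, 12.12 and 12.12, its relative S100A10 with 11.04, and ANXA2, the annexin that binds S100A10, with 11.74. SNAI2 and TWIST1, factors of epithelial-mesenchymal transition, had 10.23 and 9.74, and the hyaluronan receptor CD44 had 9.43 on 1 of its 13 probe sets, with the others at background. VIM, the mesenchymal intermediate filament, had 7.33, 7.41 and 7.17. AXL, a receptor kinase of the non-neuroendocrine state, had 6.24, and the YAP1 target genes CCN1 and CCN2 had 7.22 and 5.24. Thus SNAI2 and TWIST1 were above background in cells with VIM, ZEB1 (7.90) and ZEB2 (5.60) under the cutoff.

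Of 37 neural adhesion and cytoskeleton genes 24 were above background, or 64.9% against 36.1% of all genes, with MAP1B (13.51), TUBB2A (13.14), TUBB2B (13.08), MAP2 (12.13) and STMN2 (12.16) of microtubules at the top. TUBB2A and TUBB2B are close copies whose probe sets may share signal. The neurofilaments of mature neurons were at background, with 6.76 for NEFL, 6.50 for NEFM and 5.95 for NEFH. Of 20 RNA-binding proteins of neurons 12 were above, or 60.0%, led by ELAVL2 with 12.69, 12.73 and 12.74. The neuronal splicing factor SRRM4 was at background with 6.80, 6.87 and 6.72. Its relative SRRM3 had 9.09. Of 36 genes of synaptic vesicles 14 were above background, or 38.9%, close to the share over all genes, so this list did not stand apart. SV2B had 11.52, SNAP25, a fusion protein of vesicles, 11.43, UNC13B, which primes vesicles, 11.43, and SYT1 10.94. BSN, a scaffold of the active zone, had 6.51, and the glutamate transporters of vesicles SLC17A7 and SLC17A6 had 6.72 and 5.43.

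Of 20 voltage-gated channel genes 8 were above background, or 40.0%, near the 36.1% of all genes. CACNA2D1 and CACNA1A, subunits of neuronal calcium channels, had 11.61 and 11.51, and the potassium channels KCNA1 and KCNH2 had 11.15 and 10.15. Patients with small cell lung cancer may form antibodies against the channel that CACNA1A encodes. The brain sodium channel SCN2A was lowest with 6.82.

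Proliferation genes were above background for 34 of 35, or 97.1% against 36.1% of all genes, with a list median of 11.37. HMGB2, a chromatin protein of dividing cells, had 13.66, 13.66 and 13.67, PCNA, the clamp of DNA polymerases, 13.47, 13.47 and 13.62, and TOP2A, the topoisomerase that etoposide hits, 13.12, 13.11 and 13.13. TYMS (12.77), RRM1 (12.76) and RRM2 (12.62) supply nucleotides, and CDK1 (12.50) and CCNB1 (12.48) drive mitosis. In the RB axis, CDKN2A, an inhibitor that is often high where RB1 is lost, had 11.48, 11.43 and 11.49. RB1 had 8.44, 8.40 and 8.76, under the cutoff on all 3 arrays, and CCND1, the cyclin that acts through RB1, had 6.83, 7.06 and 6.79. CDK4 had 11.99, E2F3 11.16 and CCNE2 11.15. In this list of 31 genes 20 were above background, or 64.5%.

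Of 15 targets of DNA-damaging therapy 12 were above, or 80.0% against 36.1% of all genes. PARP1 had 12.27, WEE1 11.90 and TOP1 11.42. SLFN11, which sensitizes cells to replication damage, had 6.16, 6.08 and 6.10, and MGMT, which removes alkyl groups from guanine, had 6.46, both at background. Among chromatin regulators 19 of 23 were above, or 82.6%. They included the Polycomb subunits SUZ12 (12.20), EED (11.51) and EZH2 (11.22) and the maintenance methyltransferase DNMT1 (12.03). HMGA2 was lowest with 6.68, and all 8 of its other probe sets were at background too.

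Receptor tyrosine kinases were above background for 7 of 31, or 22.6% against 36.1% of all genes. MET, the receptor of hepatocyte growth factor, had 11.75, 11.76 and 11.82, on 1 of its 4 probe sets, and KIT, the receptor of stem cell factor, 10.83, 10.85 and 10.74. EPHA7 had 10.24, FGFR1 9.51 and IGF1R 9.41. EGFR was at background with 7.57 on the brightest of 9 probe sets. Of 19 measured PI3K, AKT and partner genes 8 were above background, or 42.1%, near the 36.1% of all genes. They were the regulatory subunits PIK3R3 (11.40) and PIK3R1 (10.92), PDPK1 (11.21), PIK3C2A (10.96), PIK3C3 (10.44), AKT2 (10.16), RICTOR (10.06) and AKT1 (9.68). The catalytic subunit PIK3CB had 8.32, 8.28 and 8.38, PIK3CD had 8.06 and PIK3CG, a leukocyte isoform, 6.18, all at background.

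In the BCL2 family, which sets the threshold of apoptosis, 13 of 18 genes were above background, or 72.2% against 36.1% of all genes. The BH3-only protein PMAIP1 had 12.57, 12.57 and 12.55, the survival protein MCL1 12.04 on each array, BCL2L1 10.14 on each array, and BCL2 9.89, 9.91 and 9.96. BAX had 9.55, while BAK1, its partner in the outer membrane, was at background with 7.96. BCL2A1, a survival protein of blood cells, was lowest with 5.48.

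Antigen presentation was read unevenly. B2M, the light chain of MHC class I, had 13.69, 13.69 and 13.70, and the heavy chains HLA-C and HLA-B had 11.88 and 10.84, although HLA probe sets may read several of these similar genes. The peptide transporters TAP1 and TAP2 had 8.17 and 8.59, the immunoproteasome subunit PSMB9 7.16 and the class I activator NLRC5 6.32, all at background. In all, 12 of 19 class I genes (63.2%) and 0 of 11 class II genes were above, against 36.1% of all genes. Class II levels ran from 6.05 to 8.63. Of 18 cancer testis antigens, genes otherwise kept to the germ line, 3 were above background, or 16.7%. MAGEA6 had 12.95, 12.94 and 12.97, MAGEA12 11.89, 11.90 and 12.07, and PRAME 10.20, 10.09 and 10.12. The MAGEA genes are near-identical, so the member behind a signal is uncertain, but MAGEA4 had 4.78 and MAGEA1 8.33.

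HOX genes, which mark position along the body axis, were above background for 12 of 24, against 36.1% of all genes. These 12 lie in clusters B, C and D. HOXB3 had 11.05, 11.08 and 11.07, HOXC6 10.88, 10.88 and 10.97, and HOXD10 10.74, 10.72 and 10.79. By cluster, 5 of 9 HOXB, 4 of 7 HOXC and 3 of 7 HOXD genes were above. These counts are too small to set a cluster apart from all genes. Within a cluster, genes above and at background lay side by side: HOXB7 had 10.57, whereas HOXB6 and HOXB8 had 7.38 and 6.58. From cluster A, HOXA2 alone was measured here, with 5.64.

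Markers of other cell types were mostly at background. Over 11 lists with 165 genes, 25 were above background, or 15.2%, against 36.1% of all genes. The share of the reference silent genes, 4.95%, is set by the cutoff itself and is no measured comparison. None of 16 T and NK cell genes was above, with levels from 5.68 to 8.21, and none of 16 myeloid genes, with levels from 5.81 to 8.35. PTPRC, the CD45 antigen of all leukocytes, had 6.45. None of 18 hepatocyte genes was above on all arrays, with ALB at 5.67. The culture is a single line, so these levels describe marker genes in H69 cells and not shares of other cell types.

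Among the 11 lists, that of ciliated and goblet airway cells had the most members above, 7 of 14: TFF3, a mucosal trefoil peptide, with 13.08, 13.07 and 13.09, and AGR2, a disulfide isomerase needed for mucin folding, with 12.66, 12.57 and 12.70. The mucins MUC1 and MUC5AC had 10.01 and 9.35, and TPPP3, CAPS and SPDEF had 9.67, 9.39 and 9.21. FOXJ1, the master factor of cilia, was at background with 8.54, and DNAI1 and DNAI2 of the ciliary motor had 6.81 and 7.03. Other secretory genes of the airway were at background as well, with 8.04 for MUC5B, 7.93 for BPIFB1, 6.80 for SCGB3A1, 6.23 for SCGB3A2 and 5.97 for SCGB1A1, the club cell secretoglobin. Of 15 basal and squamous genes SOX2, KRT15 (11.65) and ITGA6 (10.29) were above, or 20.0%, while the defining keratin KRT5 had 6.58. Of 12 tuft cell genes DCLK1 (11.04), ASCL2 (9.72), SOX9 (9.20) and AVIL (9.03) were above, or 33.3%, near the 36.1% of all genes. SOX2 and ASCL2 are also in the list of lineage factors. No other probe set of AGR2, MUC1, MUC5AC, CAPS, SPDEF, ASCL2, SOX9 or AVIL was above background on all arrays.

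The remaining calls for other cell types were scattered. ABCA3 had 9.83, and SFTPC, a surfactant protein, had 9.09, with none of its 4 other probe sets above background on all arrays. The periostin gene POSTN, of fibroblasts, had 12.08, 12.08 and 12.15, next to COL1A1 with 9.29 and DES with 8.96, while COL1A2, COL3A1 and LUM had 7.16, 6.89 and 6.26. CLDN5, an endothelial claudin, had 10.07, while CDH5 and PECAM1 had 6.08 and 8.52. IGHM, PAX5 and IGKC of B cells had 10.03, 9.52 and 9.09, with MS4A1 at 6.20. SLC1A2 and MBP of glia had 10.40 and 9.74, with GFAP at 7.78. No other probe set of COL1A1, DES, PAX5, IGKC or SLC1A2 was above background on all arrays.

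**Figure D4:**
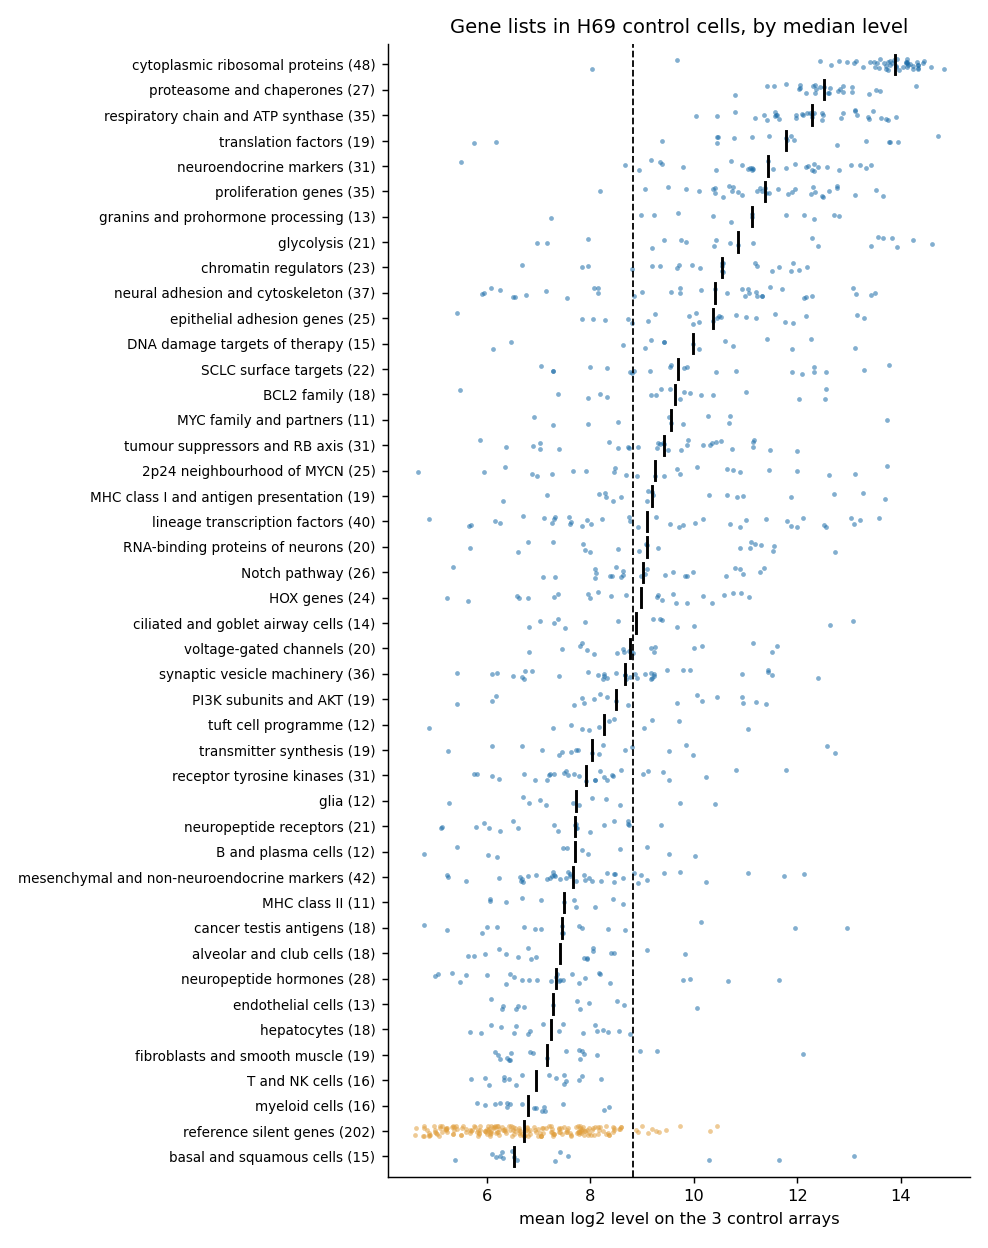
Mean log2 level over the 3 control arrays (x axis) of the members of each list, 1 point per gene, with the list median as a black bar and the number of measured genes in brackets. The dashed line is the background cutoff averaged over the arrays, and the reference silent genes are in orange. Ribosomal proteins lie highest, with a median of 13.89, the neuroendocrine markers have 11.43, and myeloid genes lie near the silent list.

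Spread between the control arrays was small for most genes. The median SD was 0.03 for genes at 12 or more and 0.08 for genes between 6 and 8. Of the 7135 genes above background, 24 differed by at least 0.5 between their highest and lowest array, and 23 of these 24 had the same order, control 3 over control 1 over control 5. Over all genes above background 14.1% had that order. HK2, the first enzyme of glycolysis, spread most, with 11.09, 11.55 and 9.91 on controls 1, 3 and 5. VEGFA, the vascular growth factor, had 11.05, 11.38 and 9.97. NDRG1 had 10.85, 11.33 and 9.97, and PFKFB3, which speeds glycolysis, 10.23, 10.65 and 9.32.

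The rest of the 10 widest genes had the same order. HMOX1, which breaks down haem, had 10.22, 10.58 and 9.35, and MXI1 9.66, 10.08 and 8.93. STC2 had 9.77, 10.19 and 9.20. The histone demethylase KDM3A and the collagen hydroxylases PLOD2 and P4HA1 spread by 0.88, 0.83 and 0.81. These 10 genes have 9 further probe sets, of which 7 had the same order, among them all 3 with a mean over the cutoff. COX3, a mitochondrially encoded subunit of cytochrome oxidase, was the exception among the 24, with its highest value, 9.75, on control 5 and its lowest on control 3.

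Most of these genes are known to respond to low oxygen through the HIF factors. A list of 35 oxygen-responsive genes was therefore written after these values were seen, so its count describes the same pattern and is no independent support. Of its 28 members above background 25 had the order control 3 over 1 over 5, as did 13 of 17 glycolysis genes. Some genes, among them LDHA, PGK1 and ALDOA, are in both lists, so these counts are not separate. Of the neuroendocrine markers above background 5 of 29 had that order, and of the proliferation genes 4 of 34. EGLN3, a HIF prolyl hydroxylase, had 9.67, 10.25 and 8.81, so that it passed the cutoff on controls 1 and 3 and not on control 5. SLC2A1, the glucose transporter, had 9.21, 9.48 and 8.90. Without control 5, 1 gene above background differed by at least 0.5; without control 3 there were 13 and without control 1 there were 24. Control 5 was also the array with the largest actin 3' to 5' difference, 0.44, while that of GAPDH on this array was 0.01. The part of RNA quality in this pattern was not tested.

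**Figure D5:**
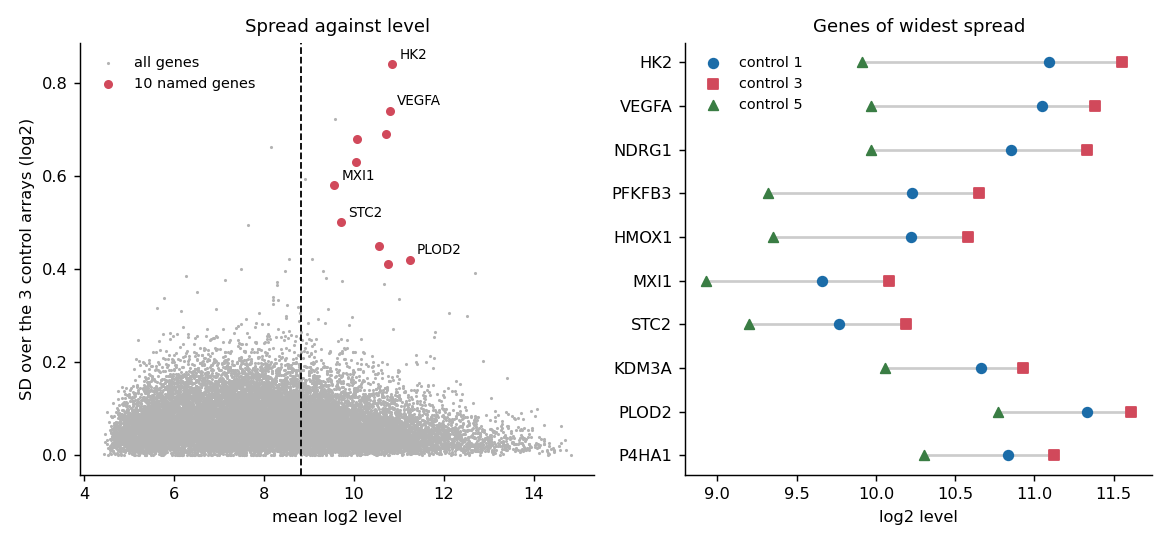
Left, SD over the 3 control arrays (y axis, log2) against mean log2 level (x axis) for all genes in grey and the 10 genes above background with the largest SD in red; the dashed line is the background cutoff averaged over the arrays. Right, log2 level of these 10 genes on each control array: control 3 is highest and control 5 lowest for all 10, from HK2 with 11.55 and 9.91 to P4HA1 with 11.12 and 10.30.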

How the data were processed

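Gene expression was measured on Affymetrix arrays, of which the 3 vehicle controls were used. The deposited log2 values had been made by the authors with RMA, per the submitters' processing notes (version not given in the sources used here). Whether RMA ran over all 9 arrays is not stated there. The platform annotation gives a single symbol to 41091 of 54675 probe sets (41037 of these also have an Entrez identifier in the RefSeq table), several to 1801 and none to 11721; the other 62 are manufacturer controls. The values were used as deposited, with 0 value columns unmapped.

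Among single-symbol probe sets, the brightest on the control arrays stood for its gene (19775 genes, 10523 with a choice of probe sets). The background cutoff was the 95th percentile of the reference silent genes on each array. There is 1 group, so no test between groups was made. An alternative call used limma 3.58.1 in R 4.3.3, one-sided, at an adjusted p under 0.05. The steps were tested on simulated data. Python 3.11.15 with numpy 2.4.6, pandas 2.3.3 and matplotlib 3.10.9 was used. RefSeq promoter sequences (GRCh38.p14) were matched by symbol for 15384 genes.

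The 44 lists hold 1313 entries, of which 1177 were matched. The rest are not analysed here. The lists and markers were chosen with earlier results of these data known, and the oxygen-responsive list was added after the values were seen. Genes were named by rule: the 30 brightest, the 4 markers, up to 8 of the highest and 6 of the lowest members of each list, members of other cell type lists above background, the 10 with the largest SD, and genes beside MYCN. Others, such as FOXA2, ISL1, NKX2-1, REST, RB1, VIM, NOTCH1, CDH1, HES1 and BAX, were named after their values were seen. Alternatives covered the choice of probe set, the scaling, the cutoff, the call and leaving out each array.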

Additional observations from a re-analysis of the deposited data

Results flagged for a closer look

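Signal above background was also present in probe sets that entered no gene level. Of the 1801 probe sets with several gene symbols 597 were above background on all 3 control arrays, or 33.1%, and 152 of them had a mean log2 level of at least 12. The brightest were 1553588_at with 14.62, 208825_x_at with 14.59, 208834_x_at with 14.58, and 213828_x_at and 213084_x_at, both with 14.57. These levels are in the range of the brightest named genes. Of the 11721 probe sets with no symbol 692 were above background, or 5.90%, and 64 reached 12. The brightest of these were 221798_x_at with 14.69, 206559_x_at with 14.63, 211720_x_at with 14.45, 201033_x_at with 14.44 and 208856_x_at with 14.42. For probe sets with exactly 1 symbol the share above background was 25.3%. The probe sets were picked out because they carry signal and no gene described here rests on them.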

How the results depend on the processing

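No paired analysis was possible because a single group was used and no result comes from a test. The cutoff decided how many genes counted as above background: 7135 as reported, 9016 with the 90th percentile of the silent genes, 4296 with the 99th, 16776 with a fixed level of 6 and 14504 with the highest tryptophan control probe set. Genes at background were 2603 and 4736 under the last 2 of these, against 11855. Markers of other cell types above background, 25 as reported, became 12, 147 and 100 under the 99th percentile, the fixed level and the tryptophan control, and 11 with the mean of all probe sets. Neighbours of MYCN above background, 10 as reported, became 3, 24 and 20 under these cutoffs and 6 with the mean. Genes that differed by at least 0.5, 24 as reported, became 13, 73 and 65, and 15 with the mean; leaving out an array gave 1 to 24. The CpG ratio difference between genes above and at background was 0.248 as reported, 0.4261 with the fixed level and 0.4083 with the tryptophan control.

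The choice of probe set decided the ranks. With the mean of all probe sets, and then without identifiers ending in _x_at or _s_at, the rank was 9480 and 3917 for MYCN, 1258 and 8370 for INSM1, and 3559 and 3985 for SYP. CHGA had rank 120 with the mean and no value without those identifiers. Genes at 12 or more numbered 275 and 271, and 49 and 22 of the 100 brightest were shared. Centring the arrays, quantile normalization of the 3 arrays, the brightest probe set over all 9 arrays, and the common cutoff (added after the data were seen) moved none of these counts or ranks by more than 1.5 times. The limma call gave 6972 genes, 6944 of them shared. In all, 127 of 159 such comparisons kept their value, 32 moved and 0 reversed. The limit was 1.5 times for counts and for the CpG ratio difference. For the marker ranks it was the SD of the rank over the 3 arrays. Of 574 comparisons for the other lists 467 stayed within 1.5 times.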
